A study of Homo sapiens with 21 samples.

Results

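The genes described here handle the calcium store of the endoplasmic reticulum (ER). They are ATP2A2 and ATP2A3, which encode the SERCA2 and SERCA3 pumps, ITPR1, ITPR2 and ITPR3, which encode the inositol trisphosphate (IP3) receptors, STIM1 and STIM2, the calcium sensors of the ER membrane, ORAI1, the entry channel of the plasma membrane that the sensors open, and TMBIM6, a membrane protein of the ER also known as Bax inhibitor 1. They were chosen by name for this role, with earlier results of these data known, and correspond to 9 of the 60671 genes in the count table. All 9 were among the 14012 genes with enough reads to be tested.

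RNA sequencing was carried out on 2 established human cell lines, with 3 libraries in each of 7 groups. OCI-AML3, a line from an acute myeloid leukaemia, was left untreated (0 h), given the solvent DMSO for 4 h or 24 h, or given tunicamycin at 1 μg/mL for 4 h or 24 h. HEK293T, a line from human embryonic kidney, was given DMSO or tunicamycin at 1 μg/mL for 24 h. Tunicamycin stops the attachment of N-glycans to new proteins, so that unfolded proteins build up in the ER and the unfolded protein response begins. Each tissue is thus represented by a single line, and the lines were grown in different media, RPMI for OCI-AML3 and DMEM for HEK293T. The labels number the replicates without saying whether they were separate cultures, so the p-values measure the spread between these libraries, which may be technical.

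SERCA pumps use ATP to move calcium from the cytosol into the ER, where chaperones such as BiP and calreticulin need it to fold proteins. IP3 receptors let the calcium out again when a signal produces IP3. When the store runs low, STIM proteins sense the loss, move to the junctions with the plasma membrane and open ORAI1, and the calcium that enters is pumped back into the ER by SERCA. TMBIM6 is described as a leak path or modulator of release that limits how full the store is. ATP2A2 is expressed almost everywhere, whereas ATP2A3 is known from blood cells and some epithelia, and SERCA2 itself has long been known to rise at the RNA level when the ER is stressed.

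Total counts ran from 13838480 to 19961819 per library (median 16657733). Levels are given as CPM, counts scaled to the size of the library with TMM factors, and levels of different genes were compared only as CPM per kilobase of the main transcript of each gene. This takes 1 annotated length for each gene, such as 8295 bases for ATP2A2 and 4695 for ATP2A3. Which isoforms were expressed was not analysed. Shares and orders between genes depend on these lengths, and their SD does not include this uncertainty. A gene passed where the p of edgeR's quasi-likelihood test, adjusted over all 14012 genes by the Benjamini-Hochberg method, was 0.05 or less. In bulk RNA, fewer cells of a kind and less RNA per cell cannot be told apart. All 9 leukocyte markers, among them PTPRC and SPI1, averaged at least 1 CPM in OCI-AML3 (3039 to 5050 CPM in sum per library). In HEK293T 2 of the 9 did (15.3 to 23.8 CPM in sum). Of 7 markers of the kidney line, 6 were at or above 1 CPM in HEK293T and 1 in OCI-AML3, so that each line carried the markers of its label. The response to the drug was visible in HSPA5, which encodes the ER chaperone BiP. In OCI-AML3 at 4 h it averaged 704 ± 26.2 CPM (SD, n = 3) with DMSO and 6869 ± 164 with tunicamycin. The means were 426 ± 9.17 and 4906 ± 168 at 24 h, and 475 ± 9.19 and 3090 ± 40.4 in HEK293T.

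Promoter sequence was read from RefSeq (GRCh38.p14) for the 6 genes with an entry, namely ATP2A2, ITPR1, ITPR3, STIM1, STIM2 and TMBIM6, because several ER stress genes carry known elements close to their start. The ER stress element (ERSE) consists of CCAAT and CCACG with 9 bases between them. It was searched on both strands in the 250 bases before each start site, and 26 of 35116 RefSeq promoters of that length (0.074%) held it. HSPA5 was 1 of these, and none of the 6 calcium genes was. The promoter of ATP2A2 held the same arrangement in every letter but the last of CCACG, at a similar distance from its start as in HSPA5. Both are shown 5′ to 3′ on the strand of their gene, with the element in capitals and 5 flanking bases on each side:
ATP2A2: ctcggCCAATGAGCGGCGTCCACAtgccg
HSPA5: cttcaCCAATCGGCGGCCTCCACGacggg

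The ATP2A2 stretch lies at chr12:110281179-110281207 on the plus strand, and the element covers bases -63 to -45 before the start of the main transcript at 110281247. A longer annotated transcript of ATP2A2 starts upstream, and all 19 bases of the element lie in an exon of it. The HSPA5 stretch lies at chr9:125241386-125241414, on the minus strand, and its element covers bases -66 to -48. The form with any last base was searched only after the ATP2A2 sequence had been seen, and 99 of the 35116 promoters (0.282%) held it. The shorter elements TGACGTGG (0.612% of promoters) and TTGCATCA (0.772%) were found in none of the 6 genes, nor was ATTGGNCCACG (0.0513%). A match is a run of letters, and these data hold no measurement of binding.

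ATP2A2 rose with tunicamycin in all 3 comparisons, and it was the member with the largest rise in each. The gene lies at chr12:110280756-110351093 on GRCh38, and its main transcript has 20 exons. In OCI-AML3 its level was 253.5, 279.5 and 270.8 CPM in untreated cells. At 4 h it was 273.7, 320.1 and 299.7 CPM with DMSO and 634.5, 593.1 and 576.8 CPM with tunicamycin. The lowest tunicamycin library was far above the highest DMSO library. At 24 h the DMSO libraries gave 262.6, 247.1 and 221.4 CPM and the tunicamycin libraries 648.4, 578.9 and 636.8 CPM. In HEK293T the values were 288.0, 280.8 and 288.7 CPM after DMSO, and 457.8, 450.1 and 446.2 CPM after tunicamycin. The groups did not overlap in any of the 3 comparisons, and the HEK293T libraries were the tightest of all. The fold change was 2.02 at 4 h (log2 1.01, SE 0.07, adjusted p = 9.1e-11), 2.55 at 24 h (log2 1.35, SE 0.07, adjusted p = 7.2e-13) and 1.58 in HEK293T (log2 0.66, SE 0.07, adjusted p = 2.0e-07, edgeR's quasi-likelihood test for each).

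The second pump behaved differently. ATP2A3 (chr17:3923870-3964464, minus strand, 21 exons in its main transcript) gave 157.9, 176.6 and 162.9 CPM in OCI-AML3 with DMSO at 4 h, and 104.0, 114.4 and 112.8 CPM with tunicamycin. The groups did not overlap, and ATP2A3 fell by 0.59 on the log2 scale (SE 0.09, edgeR adjusted p = 1.7e-05). At 24 h the DMSO libraries held 203.4, 214.3 and 176.7 CPM and the tunicamycin libraries 203.6, 158.2 and 158.3 CPM. Replicate 1 with tunicamycin lay among the DMSO libraries, and the log2 fold change of -0.19 (95% interval -0.38 to -0.01, before adjustment) missed the threshold at an edgeR adjusted p of 0.073. Without that library it was -0.28 and passed (adjusted p = 0.0084). It was -0.08 without tunicamycin replicate 2 (adjusted p = 0.50), -0.09 without tunicamycin replicate 3 or DMSO replicate 2 (0.48 for each), -0.13 without DMSO replicate 1 (0.32) and -0.12 with library sizes alone (0.29).

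In HEK293T ATP2A3 was scarce. The DMSO libraries held 4.57, 3.75 and 4.07 CPM, from 70 to 89 counts each, and the tunicamycin libraries 1.52, 1.91 and 1.88 CPM, from 28 to 35 counts. All tunicamycin libraries were below all DMSO libraries. The level was 2.35 times lower (log2 -1.23, SE 0.19, edgeR adjusted p = 3.2e-05), at a depth where counting error is a large part of the spread.

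The balance between the pumps shifted in OCI-AML3. Per kilobase of transcript, ATP2A2 made up 46.6 ± 0.233% (SD, n = 3) of the sum of ATP2A2 and ATP2A3 in untreated cells, and 50.4 ± 0.776% with DMSO at 4 h. Its share with tunicamycin was then 75.5 ± 1.78%, and the libraries ran from 74.3 to 77.5%. At 24 h it was 41.1 ± 1.42% with DMSO and 67.1 ± 2.61% with tunicamycin, the latter from 64.3 to 69.5%. In HEK293T it was 97.5 ± 0.215% after DMSO and 99.3 ± 0.0924% after tunicamycin. ATP2A1, which encodes SERCA1, the pump of fast skeletal muscle, is not in these sums. In HEK293T it averaged 0.576 ± 0.120 CPM per kilobase with DMSO and 0.697 ± 0.0606 with tunicamycin, beside 0.879 and 0.376 for ATP2A3. For the share of ATP2A2, the groups did not overlap in any of the 3 comparisons, and the exact two-sided permutation test over libraries gave p = 0.1 in each, the smallest p that 3 against 3 allows.

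**Figure D1:**
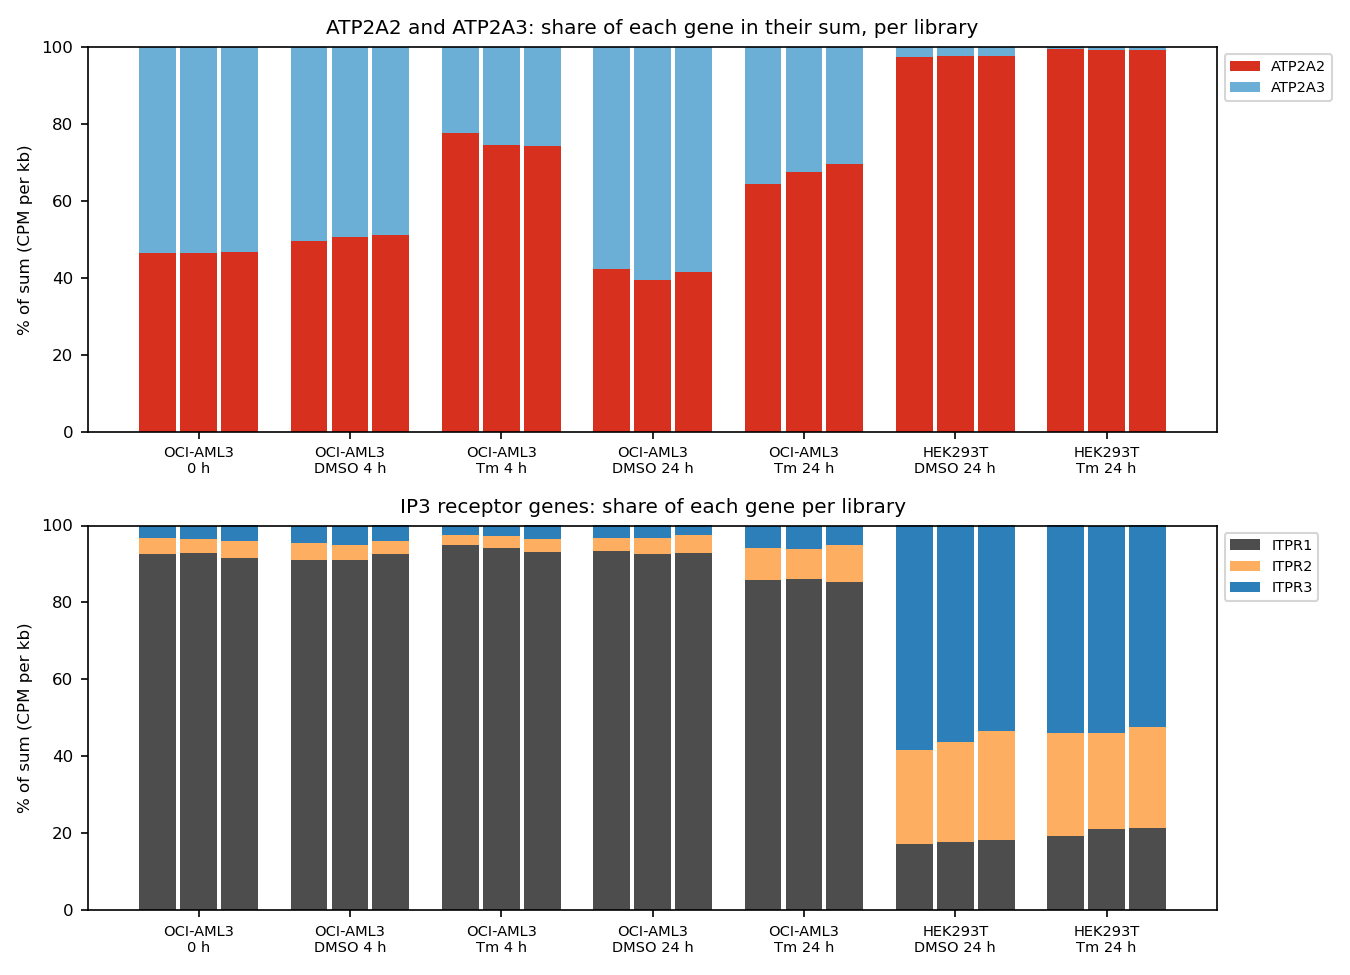
Share of ATP2A2 and ATP2A3 in the sum of both (top) and of each IP3 receptor gene in the sum of the 3 (bottom), in % of summed CPM per kilobase, with 1 bar for each of the 21 libraries in 7 groups (Tm, tunicamycin). ATP2A2 takes 74.3 to 77.5% of the sum in OCI-AML3 after tunicamycin for 4 h, against 49.5 to 51.0% after DMSO, and ITPR1 takes over 85% of the IP3 receptor transcripts in every OCI-AML3 library and no more than 21.3% in HEK293T.

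The lines differed in which release channel made up most of the IP3 receptor transcripts. In OCI-AML3 ITPR1 made up 91.5 to 92.9% of the IP3 receptor transcripts per kilobase in the 3 groups without tunicamycin, as group means. In HEK293T after DMSO it made up 17.7 ± 0.491% (SD, n = 3), whereas ITPR3 made up 56.0 ± 2.56% and ITPR2 26.3 ± 2.08%. After tunicamycin for 24 h the ITPR1 share in OCI-AML3 was 85.8 ± 0.297% against 92.9 ± 0.393% with DMSO, and that of ITPR2 was 8.60 ± 0.829% against 4.08 ± 0.542%. The ITPR1 share was higher with tunicamycin in the other comparisons, at 94.01% against 91.5% in OCI-AML3 at 4 h and 20.5% against 17.7% in HEK293T. None of these pairs of groups overlapped, with the exact two-sided permutation p at its smallest value of 0.1.

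ITPR1, the IP3 receptor best known from neurons (chr3:4493345-4847506, plus strand, 62 exons), moved in opposite directions at the 2 times. The DMSO libraries of 4 h held 104.1, 126.8 and 118.8 CPM and the tunicamycin libraries 146.3, 143.1 and 144.9 CPM. The latter lay above all DMSO libraries, and ITPR1 rose by 0.31 on the log2 scale (SE 0.09, edgeR adjusted p = 0.0093), a call that was lost without DMSO replicate 1 (0.24, adjusted p = 0.053). At 24 h the values were 121.2, 116.3 and 90.8 CPM with DMSO and 90.2, 86.5 and 96.6 CPM with tunicamycin. DMSO replicate 3 lay inside the tunicamycin range.

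The decrease of ITPR1 at 24 h passed by a narrow margin (log2 -0.26, SE 0.09, edgeR adjusted p = 0.021). It was lost in 7 of 14 alternatives, among them leaving out DMSO replicate 1 (-0.14, adjusted p = 0.27), DMSO replicate 2 (-0.17, adjusted p = 0.18), tunicamycin replicate 1 (-0.21, adjusted p = 0.11) or tunicamycin replicate 2 (-0.18, adjusted p = 0.16). Without DMSO replicate 3 it was -0.33 (adjusted p = 0.0028). In HEK293T ITPR1 was low, at 13.5, 13.9 and 14.7 CPM with DMSO and 14.03, 17.8 and 16.5 CPM with tunicamycin, and the groups overlapped (log2 0.20, 95% interval -0.04 to 0.43, adjusted p = 0.21).

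ITPR2, the isoform typical of heart and liver (chr12:26335352-26833194, minus strand, 57 exons), rose in OCI-AML3 at 24 h. After DMSO it was at 5.74, 6.73 and 5.62 CPM and after tunicamycin at 11.1, 10.1 and 13.7 CPM, and the groups were well apart. The rise was 1.94-fold (log2 0.95, SE 0.14, edgeR adjusted p = 7.9e-06). At 4 h the DMSO libraries held 6.31, 7.04 and 5.44 CPM and the tunicamycin libraries 5.24, 6.28 and 6.68 CPM, which overlap (log2 -0.04, 95% interval -0.35 to 0.26). In HEK293T the libraries lay at 24.3, 25.9 and 29.2 CPM with DMSO and 24.9, 26.9 and 25.9 CPM with tunicamycin, and no difference was detected (log2 -0.03, 95% interval -0.27 to 0.20).

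ITPR3, which is common in epithelia (chr6:33620365-33696574, plus strand, 58 exons), was the scarcest member in OCI-AML3 after DMSO for 24 h. Its DMSO libraries held 3.87, 3.80 and 2.23 CPM, from 29 to 57 counts, and the tunicamycin libraries 5.62, 5.59 and 5.23 CPM, from 75 to 96 counts. All 3 tunicamycin libraries were above all DMSO libraries, with DMSO replicate 3 lowest, and ITPR3 rose 1.64-fold (log2 0.71, SE 0.19, edgeR adjusted p = 0.0033). Without DMSO replicate 3 the log2 value was 0.56 (adjusted p = 0.017). The tunicamycin level of 5.48 ± 0.219 CPM (SD, n = 3) was near that of DMSO at 4 h (5.38 ± 0.999 CPM). It was above that of untreated cells (3.78 ± 0.562 CPM). ITPR3 fell under DMSO between 4 h and 24 h, to 3.30 ± 0.926 CPM (log2 -0.69, SE 0.19, edgeR adjusted p = 0.0055). At 4 h the DMSO libraries held 4.85, 6.53 and 4.75 CPM and the tunicamycin libraries 3.33, 3.76 and 5.16 CPM. These overlapped, and the difference did not pass (log2 -0.41, adjusted p = 0.079), although it did without tunicamycin replicate 3 (-0.60, adjusted p = 0.020). It was -0.25 without DMSO replicate 2 (adjusted p = 0.35) and -0.28 without tunicamycin replicate 1 (0.29).

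In HEK293T the ITPR3 libraries lay at 42.1, 40.3 and 39.5 CPM with DMSO and at 36.2, 41.9 and 37.2 CPM with tunicamycin, which overlap (log2 -0.08, 95% interval -0.32 to 0.17). ITPR3 shares 1025 exonic bases with UQCC2, a mitochondrial assembly factor on the other strand, and the sources do not state whether counting used the strand. UQCC2 averaged 54.9 ± 6.01 CPM (SD, n = 3) with DMSO and 41.1 ± 2.33 with tunicamycin at 4 h, and 53.8 ± 4.78 and 29.2 ± 6.46 at 24 h. At 4 h UQCC2 fell (log2 -0.42, edgeR adjusted p = 0.0060), in the direction of the ITPR3 value of -0.41 that did not pass. At 24 h it fell (log2 -0.89, adjusted p = 2.1e-06) where ITPR3 rose. Its part in the counts of ITPR3 was not tested at either time.

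Of the sensors, STIM1 (chr11:3854527-4093210, 13 exons) rose at both times in OCI-AML3. At 4 h it was at 65.9, 62.5 and 63.1 CPM with DMSO and at 85.7, 84.1 and 82.1 CPM with tunicamycin. At 24 h it was at 98.8, 90.9 and 77.7 CPM with DMSO and at 142.4, 122.9 and 123.2 CPM with tunicamycin. The groups did not overlap at either time, and the DMSO libraries themselves were higher at 24 h than at 4 h. The fold changes were 1.32 (log2 0.40, SE 0.08, edgeR adjusted p = 0.00065) and 1.45 (log2 0.54, SE 0.08, adjusted p = 1.3e-05). In HEK293T STIM1 held 41.0, 34.9 and 36.4 CPM with DMSO and 39.2, 39.6 and 38.5 CPM with tunicamycin, with the tunicamycin libraries inside the DMSO range (log2 0.06, 95% interval -0.12 to 0.24).

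STIM2, the sensor that responds to smaller losses of calcium (chr4:26857601-27025381, 12 exons), rose at 24 h in OCI-AML3. Its DMSO libraries held 11.8, 11.1 and 13.01 CPM and its tunicamycin libraries 19.3, 17.6 and 20.4 CPM, with no overlap. The fold change was 1.60 (log2 0.67, SE 0.11, edgeR adjusted p = 3.0e-05). The tunicamycin level of 19.1 ± 1.40 CPM (SD, n = 3) was nearer to that of untreated cells (16.6 ± 1.53 CPM) than to the DMSO control. STIM2 fell under DMSO between 4 h and 24 h, from 17.3 ± 0.771 to 11.99 ± 0.955 CPM (log2 -0.53, SE 0.11, adjusted p = 0.00056). At 4 h its groups overlapped (log2 -0.08, 95% interval -0.30 to 0.14), as they did in HEK293T, with means of 21.4 and 21.2 CPM (log2 -0.02, 95% interval -0.22 to 0.19).

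ORAI1 (chr12:121626509-121643218, 3 exons) passed in no tunicamycin comparison. In OCI-AML3 it was at 39.1, 33.2 and 30.3 CPM with DMSO and 32.9, 32.2 and 26.7 CPM with tunicamycin at 4 h, and at 32.6, 32.4 and 40.5 CPM with DMSO and 40.9, 42.0 and 30.5 CPM with tunicamycin at 24 h. In HEK293T it was at 11.6, 11.4 and 10.6 CPM and at 13.4, 13.8 and 10.7 CPM. The groups overlapped each time. The 95% intervals of the log2 fold change ran from -0.43 to 0.11, from -0.17 to 0.37 and from -0.12 to 0.49, so that changes of these sizes could not be told from 0.

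TMBIM6 (chr12:49707725-49764934, 10 exons) had by far the highest level per kilobase of the 9 genes in every group. It did not differ at 4 h, where the DMSO libraries held 747.9, 648.1 and 661.8 CPM and the tunicamycin libraries 703.2, 674.5 and 677.0 CPM (log2 0.00, 95% interval -0.12 to 0.12, adjusted p = 0.98). At 24 h it rose from 753.2, 732.1 and 731.5 CPM to 1002, 1016 and 925.5 CPM. The tunicamycin libraries were all above the DMSO libraries (1.33-fold, log2 0.41, SE 0.06, edgeR adjusted p = 6.3e-06). In HEK293T the values were 383.5, 386.4 and 384.0 CPM against 430.0, 448.7 and 450.7 CPM, with no overlap. That rise was small (log2 0.20, SE 0.06, adjusted p = 0.014) and was lost without tunicamycin replicate 2 (adjusted p = 0.050, just above the threshold), without tunicamycin replicate 3 (0.052) or with no filter on low genes (0.12).

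**Figure D2:**
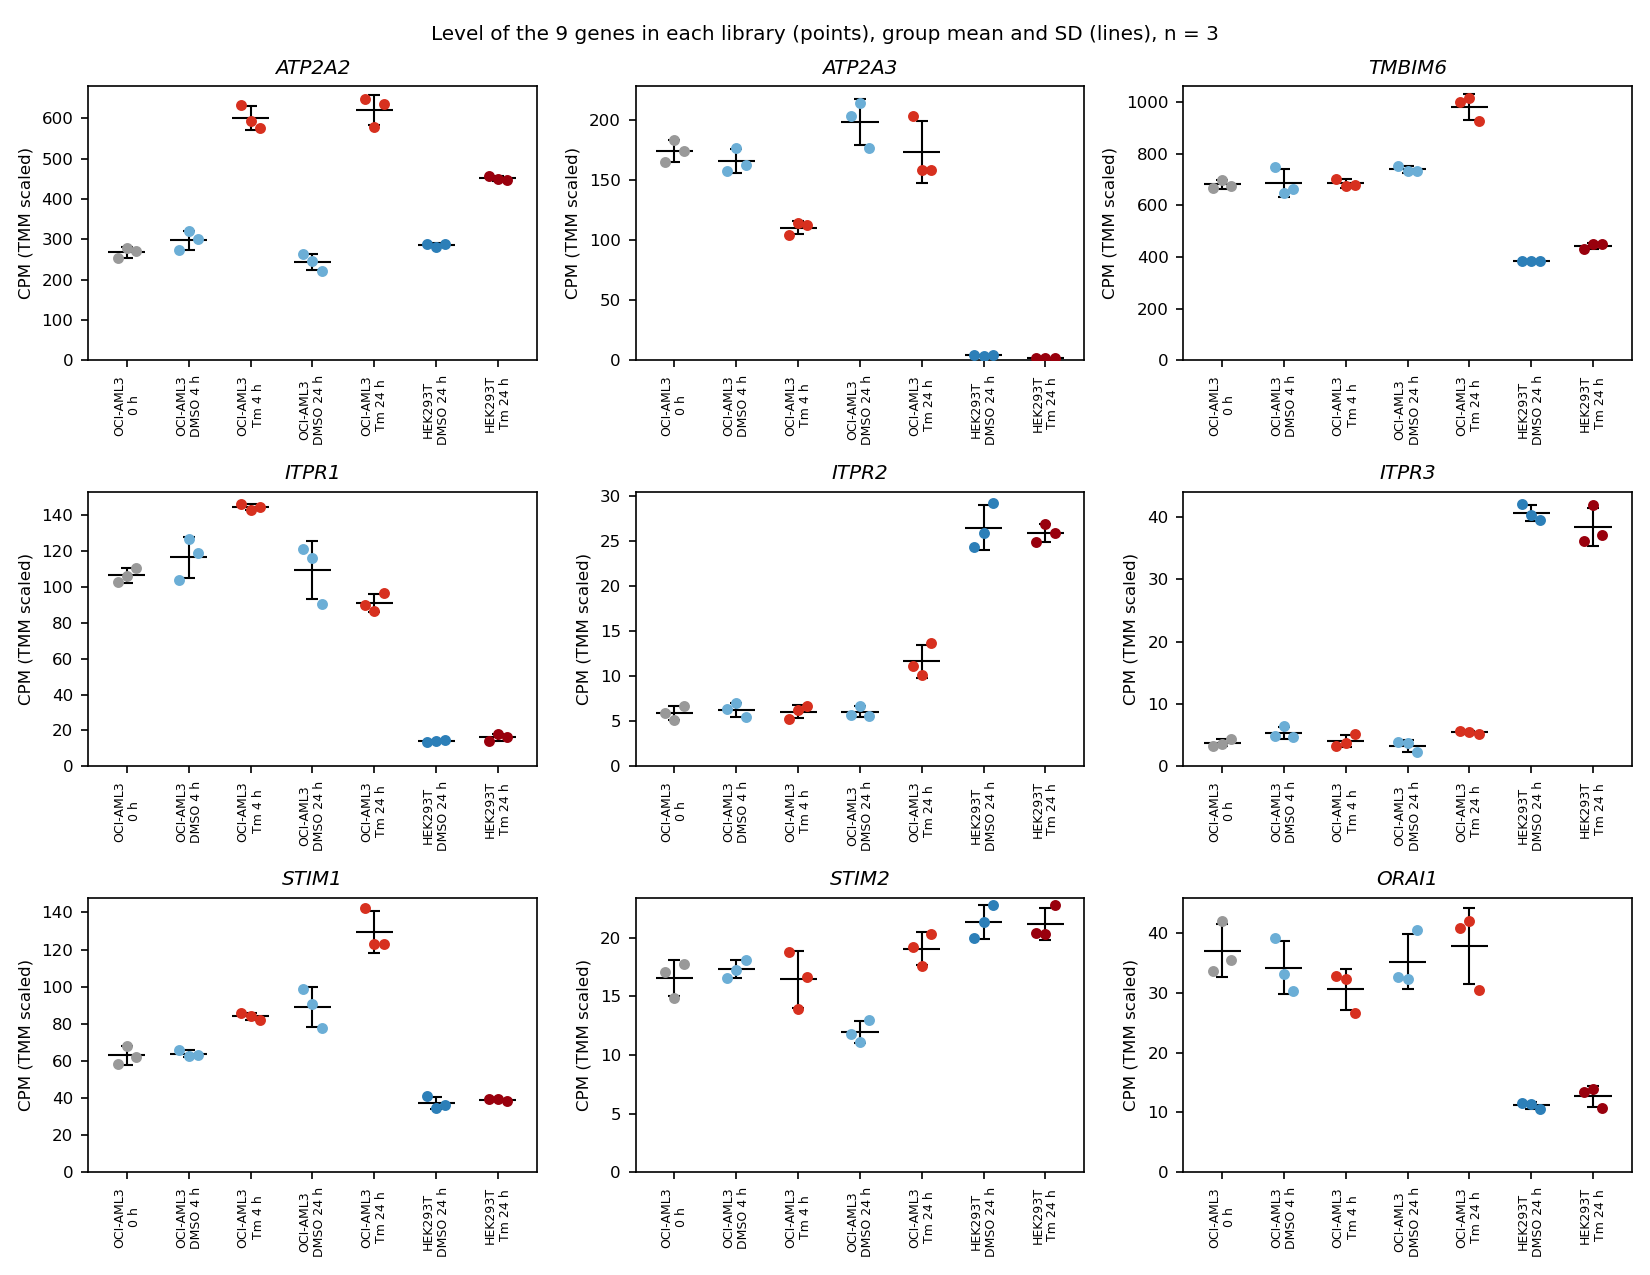
Level of each of the 9 genes in each of the 21 libraries (points), in CPM after TMM scaling on linear axes that start at 0, with the mean and SD of the 3 libraries of a group (lines; Tm, tunicamycin). ATP2A2 is at 446.2 CPM or above in all tunicamycin libraries and at most 320.1 CPM in the others, whereas the ORAI1 libraries with tunicamycin overlap those with DMSO in each of the 3 comparisons.

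Counted over the 9 genes, 3 rose and 1 fell in OCI-AML3 at 4 h. ATP2A2, ITPR1 and STIM1 were the higher ones and ATP2A3 the lower one. Of all genes tested, 37.5% passed in this comparison, 18.5% as higher and 18.9% as lower, and the median log2 fold change was -0.04 for the 9 genes and -0.02 for all. At 24 h 6 rose and 1 fell, where 51.1% of all genes passed, 23.5% as higher and 27.7% as lower. The median was then 0.54 for the 9 genes and -0.01 for all genes. In HEK293T 2 rose and 1 fell, where 25.7% of all genes passed, 12.6% as higher and 13.1% as lower, with medians of 0.06 and -0.01. These shares of all genes depend on the fit, in which the groups share 1 estimate of the spread. With only the compared groups in the fit, 5783 genes passed in HEK293T instead of 3606. In OCI-AML3 4594 passed instead of 5249 at 4 h, and 5874 instead of 7163 at 24 h.

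A change of more than 2-fold that also passed the test was seen in 1 member each time. It was ATP2A2 at both times in OCI-AML3, and ATP2A3 in HEK293T. Of all genes 4.92% did so at 4 h (3.45% higher, 1.47% lower), 6.32% at 24 h (4.05% higher, 2.26% lower) and 2.13% in HEK293T (1.58% higher, 0.55% lower). Over 14 alternatives in OCI-AML3, the log2 value of ATP2A2 at 4 h ran from 0.96 to 1.07. That of ITPR2 at 24 h ran from 0.85 to 1.09, so both lay on either side of the 2-fold mark. The libraries of tunicamycin and DMSO did not overlap for 4, 6 and 3 of the 9 genes in the 3 comparisons, and for 46.3%, 52.8% and 49.1% of all genes.

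**Figure D3:**
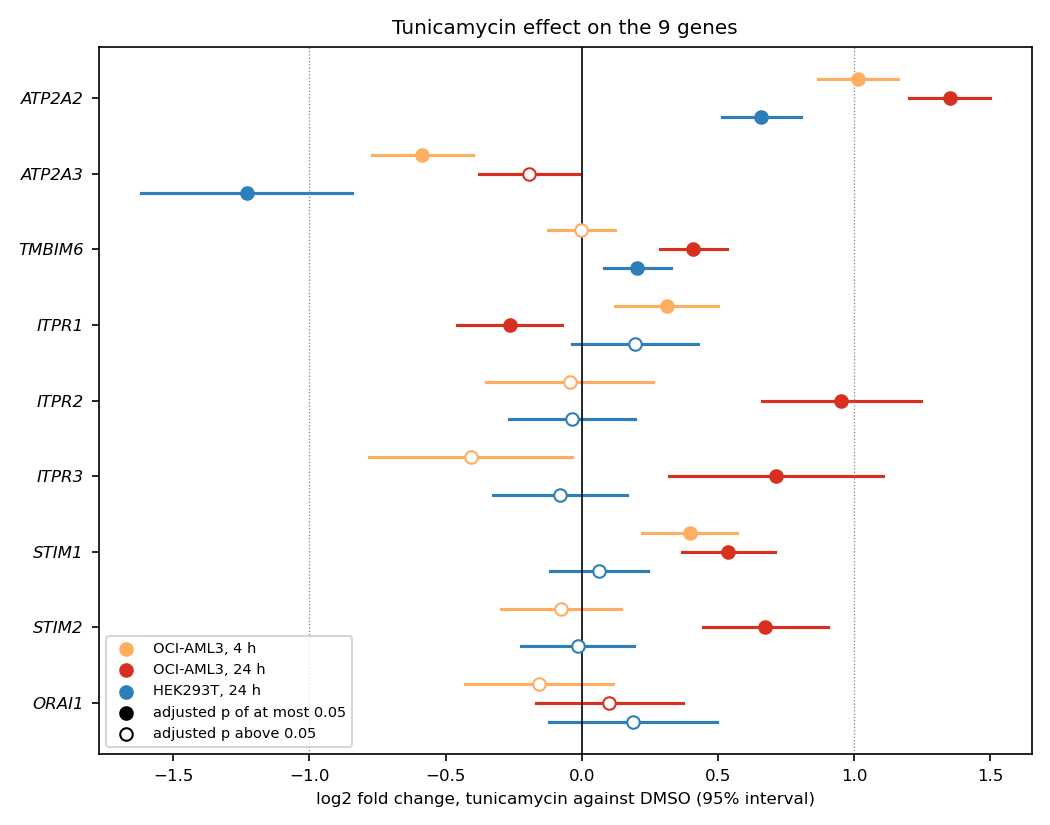
Log2 fold change of the 9 genes with tunicamycin against DMSO, with 95% intervals that are not adjusted for the number of genes, in OCI-AML3 at 4 h and 24 h and in HEK293T at 24 h. Filled points passed at an adjusted p of at most 0.05 over 14012 genes, and dotted lines mark a 2-fold change. ATP2A2 stands to the right in all 3 comparisons and ATP2A3 to the left, whereas ITPR2, ITPR3 and STIM2 are filled at 24 h in OCI-AML3 alone.

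Whether the tunicamycin effect differed between the times was tested with an interaction term in the same edgeR fit. It passed for 7 of the 9 genes, 6 of them higher at 24 h, where 35.3% of all genes passed, 15.1% as higher and 20.3% as lower. Only that of ITPR3 was also over 1, as for 6.06% of all genes (3.48% higher, 2.58% lower). Over 20 alternatives ITPR3 ran from 0.95 to 1.31 and ITPR2 from 0.88 to 1.12, so which gene is over 1 depends on the processing. The largest differences were in ITPR3 (1.12, SE 0.26, adjusted p = 0.0020), ITPR2 (1.00, SE 0.20, adjusted p = 0.00067) and STIM2 (0.75, SE 0.15, adjusted p = 0.00068), in log2 units of the effect at 24 h minus that at 4 h. TMBIM6 (0.41, adjusted p = 0.00063), ATP2A3 (0.39, adjusted p = 0.019) and ATP2A2 (0.34, adjusted p = 0.011) followed. The sign of ATP2A3 means a smaller decrease at 24 h. That call was lost without DMSO 4 h replicate 2 (adjusted p = 0.052) or tunicamycin 4 h replicate 1 (0.053). ITPR1 was the gene with the opposite sign (-0.58, SE 0.13, adjusted p = 0.0016). For STIM1 (0.14, 95% interval -0.10 to 0.39) and ORAI1 (0.26, 95% interval -0.13 to 0.64) the interaction did not pass.

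The corresponding term for the lines, the effect at 24 h in HEK293T minus that in OCI-AML3, passed for 7 genes, 6 of them lower in HEK293T. Of all genes 26.8% passed, 15.9% as higher and 10.9% as lower. It was also past 1 in size for ATP2A3 alone, and for 4.89% of all genes (2.03% higher, 2.86% lower). Over 20 alternatives the term ran from -1.16 to -0.96 for ATP2A3 and from -1.13 to -0.89 for ITPR2, with sizes on both sides of 1. It was -0.69 for ATP2A2 (SE 0.10, edgeR adjusted p = 2.2e-05), -0.99 for ITPR2 (SE 0.18, adjusted p = 0.00034), -0.79 for ITPR3 (adjusted p = 0.011), -0.69 for STIM2 (adjusted p = 0.0017) and -0.48 for STIM1 (adjusted p = 0.0053). For ATP2A3 it was -1.04 (adjusted p = 0.00084), the decrease being larger in HEK293T. ITPR1 had the opposite sign (0.46, adjusted p = 0.022), and that call was lost in 11 of 20 alternatives, with adjusted p up to 0.14. TMBIM6 (-0.20, adjusted p = 0.074) passed in 11 of 20 alternatives, with adjusted p from 0.0016 to 0.31 over the 20. ORAI1 did not pass (0.09, 95% interval -0.32 to 0.50). The term uses the same 24 h libraries of OCI-AML3 as the term for the times, so that the 2 results are not independent.

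The lines themselves differed in all 9 genes after DMSO for 24 h, in a comparison where 82.7% of all genes passed, 40.5% as higher and 42.2% as lower. The libraries of the lines did not overlap for any of the 9 genes, nor for 85% of all genes. Per kilobase, the order in OCI-AML3 was TMBIM6 (260.5 CPM per kilobase), ATP2A3 (42.2), ATP2A2 (29.4), ORAI1 (23.5), STIM1 (21.4), ITPR1 (11.04), STIM2 (2.40), ITPR2 (0.480) and ITPR3 (0.364). The libraries of ATP2A2 and ORAI1, and those of ORAI1 and STIM1, overlapped, while the other neighbours in this order did not. In HEK293T the order was TMBIM6 (135.6), ATP2A2 (34.5), STIM1 (8.98), ORAI1 (7.48), ITPR3 (4.48), STIM2 (4.27), ITPR2 (2.11), ITPR1 (1.41) and ATP2A3 (0.879). ITPR3 and STIM2 overlapped there, and the others did not.

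Lower in HEK293T were ATP2A3 (47.9 times, log2 -5.58, SE 0.12), ITPR1 (7.81 times, log2 -2.96, SE 0.10), ORAI1 (3.14 times, log2 -1.65, SE 0.14), STIM1 (2.38 times, log2 -1.25, SE 0.09) and TMBIM6 (1.92 times, log2 -0.94, SE 0.06). Higher were ITPR3 (12.2-fold, log2 3.61, SE 0.16), ITPR2 (4.38-fold, log2 2.13, SE 0.13), STIM2 (1.79-fold, log2 0.84, SE 0.11) and ATP2A2 (1.17-fold, log2 0.23, SE 0.07). The largest adjusted p of these was 0.0046, for ATP2A2 (edgeR's quasi-likelihood test). The value for ATP2A2 changed with the scaling and with the filter on low genes. It was 0.57 with library sizes alone, a setting that moved the median of all genes to 0.33, and 0.05 (adjusted p = 0.67) with no filter on low genes. Of the 9 genes 6 differed by more than 2-fold, where 45.2% of all genes did (20.3% higher, 24.9% lower). This count depends on the processing. Over 14 alternatives STIM1 (-1.43 to -0.91), TMBIM6 (-1.12 to -0.60) and STIM2 (0.66 to 1.18) lay on both sides of 2-fold.

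Some of the same genes also differed between DMSO at 24 h and DMSO at 4 h, a comparison that shares its 24 h libraries with those above. Time in culture and time in the solvent cannot be told apart here, since no untreated cells were sequenced at 24 h. Between 4 h and 24 h STIM1 rose (log2 0.48, SE 0.08, edgeR adjusted p = 8.9e-05), as did ATP2A3 (0.26, adjusted p = 0.023). ITPR3 (-0.69, adjusted p = 0.0055), STIM2 (-0.53) and ATP2A2 (-0.29, adjusted p = 0.0021) fell, so that 2 rose and 3 fell where 42.6% of all genes passed, 21% as higher and 21.6% as lower. No member changed by more than 2-fold, where 4.15% of all genes did (3.48% higher, 0.664% lower), and 5 members did not overlap, against 45.5% of all genes. With library sizes alone the median of all genes was -0.14, and ATP2A3 then no longer passed (0.14, adjusted p = 0.21). It also failed to pass without DMSO 4 h replicate 1 (adjusted p = 0.064) or replicate 3 (0.067) and without DMSO 24 h replicate 1 (0.067) or replicate 2 (0.11). Between untreated cells and DMSO at 4 h none of the 9 genes, and 0% of all genes, passed in edgeR's test. At an unadjusted p under 0.05 were 2 members, ITPR3 (log2 0.50, edgeR adjusted p = 0.49) and ATP2A2 (0.15, adjusted p = 0.59), and 1160 of all genes (8.28%). Adjusted, limma voom called 0 genes and DESeq2 16, and no member was among them. The groups did not overlap for 1 member and for 10.7% of all genes.

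Within the 15 OCI-AML3 libraries, the genes with the log2 CPM pattern most like ATP2A2 were SEL1L (Pearson r = 0.988), part of the ER degradation machinery, and HYOU1 (0.987), an ER chaperone. For TMBIM6 they were PIGC (0.976) and RNF130 (0.974), and for STIM1 CTDSP2 (0.984) and ITGAL (0.981). ATP2A3 was closest to TMEM102 (0.973) and CSPG4 (0.973), and ITPR1 to EPS15L1 (0.946) and SEC16A (0.941). The low members had weaker neighbours, PPFIA2 (0.931) and TGFBR1 (0.931) for ITPR2, POGLUT1 (0.917) and PRKACB (0.913) for STIM2, and CRACR2A (0.841) and TAF15 (0.830) for ITPR3. These are descriptions over libraries of 5 groups that share the treatment and the time, picked as the highest of 14012 genes.

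The other genes of calcium handling were followed in 7 lists, of which 60 of 81 listed genes were tested. In OCI-AML3 21 of the 60 rose and 11 fell at 4 h, and 34 rose and 6 fell at 24 h. In HEK293T 30 rose and 4 fell. The shares of higher genes were 35.0%, 56.7% and 50.0%, beside 18.5%, 23.5% and 12.6% of all genes. The shares of lower genes were 18.3%, 10.0% and 6.67%, beside 18.9%, 27.7% and 13.1% of all genes. The lists were written with earlier results of these data known and hold HSPA5, the treatment check, so that these shares are a description and no test. The counts in single lists below rest on 4 to 13 genes each.

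The list called ER luminal calcium binding had the highest median log2 fold change of the 7 lists in each comparison. It also holds SDF4, NUCB1 and NUCB2, and where in the cell each protein resides was not examined. Of 11 tested, 7 rose and 3 fell at 4 h, 10 rose and 1 fell at 24 h, and 9 rose in HEK293T. Among all genes 18.5% rose and 18.9% fell at 4 h, 23.5% and 27.7% at 24 h, and 12.6% and 13.1% in HEK293T. HSPA5 (log2 3.29, 3.52 and 2.701 in the 3 comparisons), HSP90B1, which encodes GRP94 (1.70, 3.19 and 2.21), and CALR, which encodes calreticulin (1.27, 2.57 and 1.62), passed each time. Calreticulin RNA went from 1139 ± 73.2 to 2737 ± 113 CPM (SD, n = 3) at 4 h, from 824 ± 36.3 to 4878 ± 456 CPM at 24 h, and from 539 ± 12.9 to 1659 ± 31.8 CPM in HEK293T. RCN3, a reticulocalbin, was the member that fell at 24 h (-1.11, edgeR adjusted p = 2.0e-05), and it had also fallen at 4 h (-0.41, adjusted p = 0.047).

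The list of SERCA regulators also holds ATP2A1, which passed in none of the 3 comparisons (-0.43, -0.46 and 0.27). Of its 5 tested genes, 1 rose and 1 fell at 4 h, 3 rose at 24 h and 2 rose in HEK293T. The shares of all genes were 18.5% higher and 18.9% lower at 4 h, 23.5% and 27.7% at 24 h, and 12.6% and 13.1% in HEK293T. ERP44, a thiol protein of the ER that also binds IP3 receptors, rose in all 3 comparisons (0.64, 1.26 and 0.75). DNAJC10, a disulfide reductase that acts on SERCA2, rose at 24 h (0.50) and in HEK293T (1.17), and SELENON fell at 4 h (-0.24, edgeR adjusted p = 0.027). In the store-operated entry list SARAF, which switches the entry channel off again, rose each time (0.73, 1.40 and 0.76). Its level in OCI-AML3 was 202.5 ± 30.1 CPM with DMSO and 534 ± 22.6 CPM with tunicamycin at 24 h. ORAI2, a relative of ORAI1, fell at 4 h (-0.46, adjusted p = 0.00015), and STIMATE, a partner of STIM1 at the junctions, fell at 4 h (-0.49) and rose at 24 h (0.52). Of the 9 entry genes tested, 3 rose and 2 fell at 4 h, 3 rose and 1 fell at 24 h, and 3 rose and 1 fell in HEK293T. These counts stand beside the same shares of all genes as those of the SERCA regulators.

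In the list of other release channels and their regulators, 5 of 13 rose and 2 fell at 4 h, 9 rose at 24 h and 6 rose in HEK293T. For all genes the shares were 18.5% higher and 18.9% lower at 4 h, 23.5% and 27.7% at 24 h, and 12.6% and 13.1% in HEK293T. ITPRIP, an inhibitor of IP3 receptors, rose most at 4 h (1.16, edgeR adjusted p = 2.6e-11) and also rose at 24 h (0.38, adjusted p = 0.00025). PKD2, the cation channel polycystin-2, rose most at 24 h (1.43, adjusted p = 9.6e-09) and in HEK293T (0.50, adjusted p = 0.0033), and it rose at 4 h as well (0.37, adjusted p = 0.028). RNF170, a ubiquitin ligase that marks activated IP3 receptors for degradation, rose in all 3 comparisons (0.34, 0.82 and 0.45). ERLIN2, which works with that ligase, fell at 4 h (-0.32), as did TMEM38A (-0.57), a potassium channel of the store.

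For the TMBIM relatives of TMBIM6, 1 of 4 rose at 4 h (GHITM, 0.25), 1 at 24 h (GRINA, 0.35) and 3 in HEK293T, led by TMBIM4 (0.57, edgeR adjusted p = 0.00038). Of 5 tested pumps and exchangers of the plasma membrane, Golgi and mitochondria, 1 fell at 4 h (ATP2B4, -0.31), 4 rose at 24 h, led by the plasma membrane pump ATP2B1 (0.94, adjusted p = 5.3e-05) and the Golgi pump ATP2C1 (0.54), and 2 rose and 1 fell in HEK293T. Genes of mitochondrial uptake and ER contact were split, with 4 higher and 2 lower of 13 at 4 h, 4 and 4 at 24 h, and 5 and 2 in HEK293T, beside 18.5% higher and 18.9% lower of all genes at 4 h, 23.5% and 27.7% at 24 h, and 12.6% and 13.1% in HEK293T. CISD2, an ER and mitochondrial membrane protein, rose each time (0.93, 0.74 and 0.77), and VDAC1, the channel of the outer mitochondrial membrane, fell each time (-0.22, -0.75 and -0.46).

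**Figure D4:**
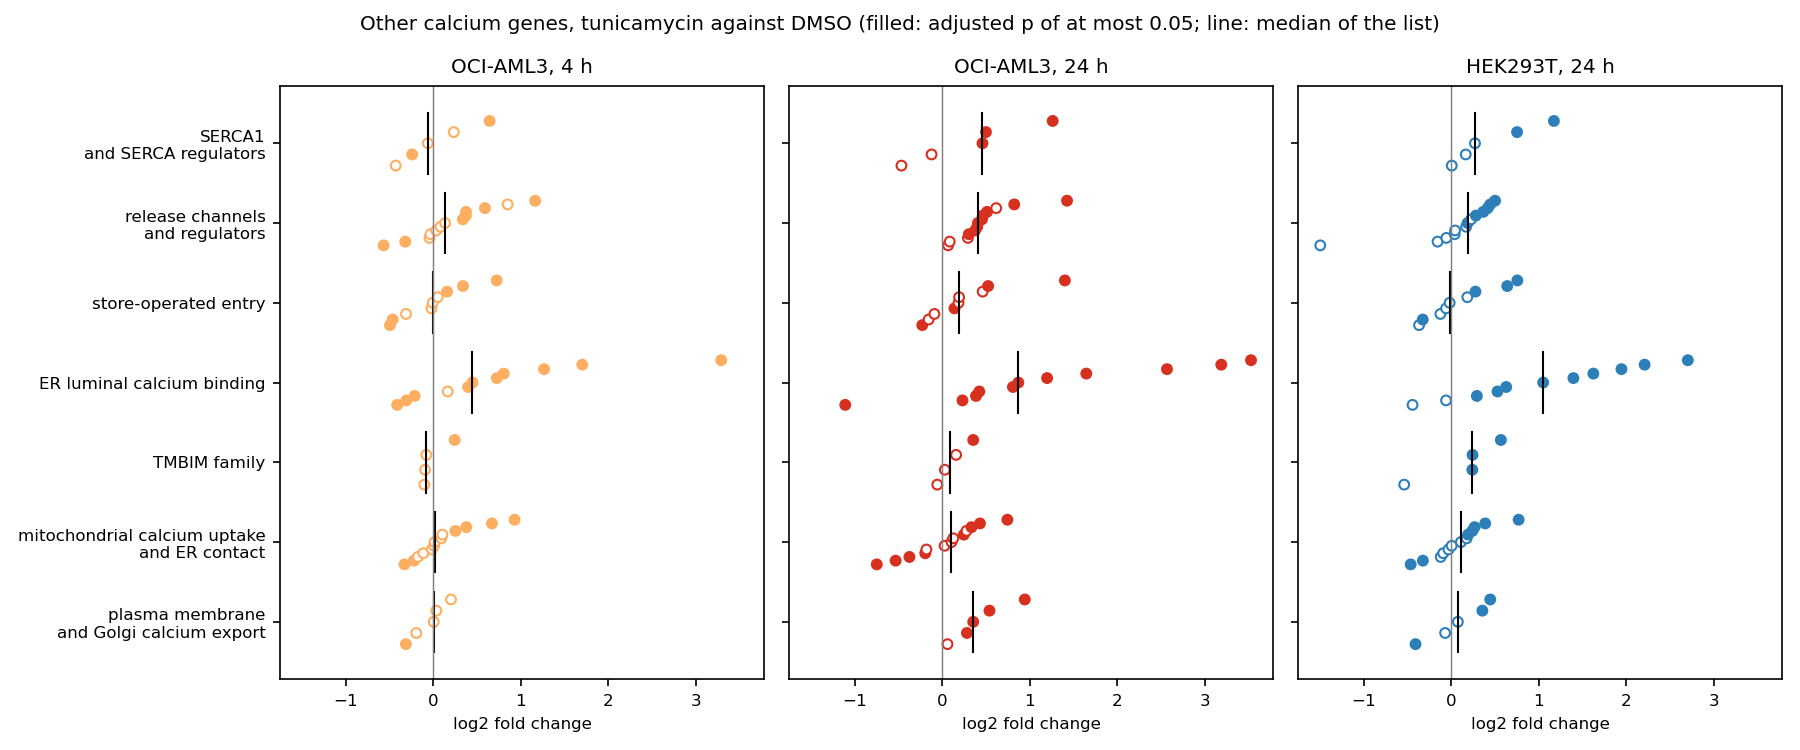
Log2 fold change with tunicamycin against DMSO of the 60 tested genes of 7 other calcium lists, in OCI-AML3 at 4 h and 24 h and in HEK293T at 24 h, on a common axis. Each point is a gene, filled where its adjusted p was at most 0.05, and the black line is the median of the list. The ER luminal calcium binding list lies farthest to the right, with medians of 0.45, 0.87 and 1.05, beside medians of all genes of -0.02, -0.01 and -0.01.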

How the data were processed

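Polyadenylated RNA of 21 libraries was sequenced as paired-end reads, which the authors trimmed with seqtk, aligned to GRCh38 (hg38) with STAR and counted with RSEM on Ensembl release 101. The values the authors deposited are RSEM expected counts for 60671 genes, neither scaled nor filtered. They were rounded to whole numbers here (3.54 to 4.22% of a library's values were not whole). RSEM divides reads that align to several genes, and strandedness is not given in the sources used here.

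The 14012 genes that reached 1 CPM in 8 or more libraries were fitted with edgeR 4.0.16 (R 4.3.3) using TMM scaling, a mean for each of 7 groups and the quasi-likelihood test. The standard error was obtained from the fold change and the square root of the F statistic. All 9 genes and all lists were chosen with earlier results of these data known. Of each list, at most the 3 genes farthest from 0 in each direction among those that passed are named. For each member that passed with tunicamycin, the 2 genes of highest Pearson correlation are named. HSPA5 serves as a check of the treatment, and UQCC2 and its values were added after the overlap had been seen. DDIT3, a further check, rose in OCI-AML3 by 5.36 at 4 h and 4.33 at 24 h and in HEK293T by 3.69 (log2). Of 81 listed genes, ERLN and ARLN matched no symbol, and 60401 of 60671 identifiers had 1. Positions and transcript lengths are from GENCODE release 44 on GRCh38. The models were also run on simulated data, but no outcome is given here, so this says nothing about their accuracy. As alternatives, the test was replaced by limma voom (limma 3.58.1) or by the Wald test of DESeq2 1.42.0. The scaling was replaced by size factors of DESeq2 or by plain library sizes, and the filter by 1 count in total or by 1 CPM in 3 libraries. Further fits held only the groups being compared, added a replicate block, or left out each library in turn. Leaving libraries out of the family shares was added after the data had been seen and says nothing about their stability, since with 3 libraries it cannot move a mean by 1 SD. Proteins, isoforms and splicing were not analysed here.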

Additional observations from a re-analysis of the deposited data

Results flagged for a closer look

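The effect of tunicamycin differed between 4 h and 24 h in OCI-AML3 for 7 of the 9 genes by the interaction term of edgeR's quasi-likelihood fit. That term passed for 35.3% of all genes, 15.1% as higher and 20.3% as lower. In log2 units, 24 h minus 4 h, the differences of the 7 genes were 1.12 for ITPR3, 1.00 for ITPR2, 0.75 for STIM2, 0.41 for TMBIM6, 0.39 for ATP2A3, 0.34 for ATP2A2 and -0.58 for ITPR1. The call of ATP2A3 was lost in 2 of 20 alternatives, with adjusted p up to 0.053. The term equals, by its definition, the change from 4 h to 24 h with tunicamycin minus that with DMSO. With DMSO the log2 change was -0.69 for ITPR3, -0.53 for STIM2, -0.29 for ATP2A2 and 0.26 for ATP2A3. With tunicamycin the means at 4 h and 24 h were 601.5 and 621.4 CPM for ATP2A2 and 16.5 and 19.1 CPM for STIM2. They were 4.08 and 5.48 CPM for ITPR3 and 110.4 and 173.4 CPM for ATP2A3. The differences thus hold the shift between the DMSO libraries, the cause of which was not tested.

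The effect at 24 h also differed between the lines for 7 of the 9 genes. This term passed for 26.8% of all genes, 15.9% as higher and 10.9% as lower. In log2 units, HEK293T minus OCI-AML3, the differences of the 7 genes were -1.04 for ATP2A3, -0.99 for ITPR2, -0.79 for ITPR3, -0.69 for ATP2A2, -0.69 for STIM2, -0.48 for STIM1 and 0.46 for ITPR1. The call of ITPR1 was lost in 11 of 20 alternatives, with adjusted p up to 0.14. The negative value of ATP2A3 stands for a larger decrease in HEK293T, and those of ATP2A2, ITPR2, ITPR3, STIM1 and STIM2 for a rise in OCI-AML3 that was smaller or did not pass in HEK293T. The rise of HSPA5, the treatment check, was also smaller in HEK293T (-0.82, edgeR adjusted p = 1.5e-07), and its part in these differences was not tested. The lines also grew in different media, which cannot be told apart from the line.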

How the results depend on the processing

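The numbers of genes called among the 9 stayed within 1.5 times of those reported under the alternatives. Leaving out single libraries gave 3 to 5 at 4 h, 6 to 7 at 24 h in OCI-AML3, 2 to 3 in HEK293T, 6 to 7 for the times, 6 to 8 for the lines, 9 for the lines under DMSO, 0 for DMSO at 4 h against untreated cells and 4 to 5 for DMSO at 24 h against 4 h. Of 1116 alternative values of single genes, 1040 kept direction and side of the threshold, 30 no longer passed, 15 newly passed and 31 changed sign.

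The changes of sign were all in values that had not passed, and the cause was not tested. With single libraries left out, the log2 values at 4 h ranged from -0.0414 to 0.0646 for TMBIM6, from -0.1411 to 0.0509 for ITPR2 and from -0.1845 to 0.034 for STIM2. TMBIM6 at 4 h was also 0.0006 with limma voom, 0.0024 with the filter of 1 CPM in 3 libraries and 0.0114 in the fit of the compared groups alone. In HEK293T the ranges were -0.093 to 0.0441 for ITPR2 and -0.0661 to 0.035 for STIM2. The difference between the lines ranged from -0.0939 to 0.133 for ORAI1 and was -0.0202 without TMM. For DMSO at 4 h against untreated cells the ranges were -0.0317 to 0.1059 for STIM1, -0.0567 to 0.0557 for TMBIM6, -0.2221 to 0.0098 for ORAI1 and -0.0146 to 0.1757 for ITPR2. For DMSO at 24 h against 4 h they were -0.0704 to 0.1468 for ORAI1, -0.1442 to 0.0452 for ITPR2 and -0.1689 to 0.027 for ITPR1. Without TMM ORAI1 was -0.0766 and TMBIM6 -0.0096 in that comparison.

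The labels do not say whether equal replicate numbers mark a pair. The correlations of the deviations of same-numbered libraries were 0.10, 0.01 and 0.13 at 4 h, 0.02, -0.08 and -0.14 at 24 h, and 0.04, 0.06 and 0.12 in HEK293T. Between libraries of different numbers they ran from -0.172 to 0.085, from -0.122 to 0.176 and from -0.077 to 0.026. All values were small, those of equal number were the higher ones in HEK293T, and a pairing was not tested. With the replicate block 4, 7 and 3 members were called in these comparisons, 7 and 7 in the interactions, 9 between the lines and 0 and 5 between controls, and no call of a member changed. Of all genes, 5411, 7250 and 3787 were called in the tunicamycin comparisons with the block, beside 5249, 7163 and 3606 without it. Counts were low for ITPR2 and ITPR3 in OCI-AML3 and for ATP2A3 in HEK293T, and how far depth limits each member was not compared.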
